A study of Mus musculus with 6 samples.

Results

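The 10 genes described here encode core proteins of the desmosome: the desmogleins Dsg1a, Dsg1b, Dsg2 and Dsg3, the desmocollins Dsc1, Dsc2 and Dsc3, and the plaque proteins desmoplakin (Dsp), plakoglobin (Jup) and plakophilin 1 (Pkp1). They were chosen by name, and all 10 were present among the 49671 genes of the table and passed the filter on low values that left 15362 genes for testing. RNA came from keratinocytes of ear skin of CD1 mice, an outbred stock, sorted alive for surface integrin alpha 6, which basal cells carry, and for the lack of CD34, a marker of the follicle bulge. The labels call them basal cells of the interfollicular epidermis, the skin surface between hair follicles. The groups were castrated males, intact females and intact males, with 2 libraries in each. A library held 100000 sorted cells pooled from 2 littermates, so the 2 values of a group show how much pools differ. Litter and group cannot be told apart. Genotype, age and the time since castration: none was given in the sources used here.

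Desmosomes join neighbouring keratinocytes and anchor their keratin filaments at the membrane. Desmogleins and desmocollins are cadherins that bind across the gap between cells. Their tails bind plakoglobin and plakophilins, and desmoplakin ties these to keratins. In mouse and human epidermis the cadherins change with the layer: Dsg3 and Dsc3 are strongest in basal cells, while Dsg1 and Dsc1 increase above them. Dsg2 and Dsc2 are the widespread forms of simple epithelia and heart and are minor in epidermis between follicles. Plakophilin 1 is the plakophilin of stratified epithelia and increases in the upper layers, while desmoplakin and plakoglobin are found in every layer.

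The libraries held 8521741 and 8675809 reads in castrated males, 9648154 and 8412487 in females, and 9265207 and 8466450 in males. Levels are CPM, the usual depth-normalised read count, after scaling of the libraries, and n = 2 libraries in every group. Differences are log2 fold changes on the log2(CPM + 0.5) scale with their standard error from limma, and "called" means a limma adjusted p under 0.05 over all genes tested. The Y-linked gene Ddx3y followed the labels, at 178 and 182 CPM in castrated males, 0.204 and 0 in females, and 184 and 158 in males. The basal keratins Krt5 and Krt14 stood at 10910.1 ± 24.4 and 13281 ± 1150 CPM in castrated males, 12269.6 ± 1595 and 15513 ± 2726 in females, and 10732 ± 1011 and 13263 ± 183 in males (SD), and neither was called in any comparison. Of the other basal markers, Krt15 (log2 fold change -0.71), Col17a1 (-0.57), Itgb4 (-0.45) and Itgb1 (-0.39) were lower in females than in males at an unadjusted p below 0.05, and none of these was called. Female replicate 2 stood farthest out on the first principal component (-64.1, which held 56.3% of the variance), with female replicate 1 at -28.9 and the other 4 libraries at 16.6 to 32.3. Deviations of a library from the mean of all 6 correlated with exon length across 15315 genes, most in female replicate 2 (Spearman rho -0.149) and castrated male replicate 1 (0.105), where genes are not independent replicates.

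Of the 10 genes, 7 lie in one cluster on chromosome 18 (GRCm38, 19960930 to 20604521). The desmocollins are read from the minus strand in the order Dsc3, Dsc2 and Dsc1 by rising coordinate, and the desmogleins follow on the plus strand as Dsg1a, Dsg1b, Dsg3 and Dsg2, with the third Dsg1 copy Dsg1c before Dsg1a. Pkp1 lies on chromosome 1 (135871395 to 135919207, minus strand), Jup on chromosome 11 (100368958 to 100397763, minus strand) and Dsp on chromosome 13 (38151294 to 38198577, plus strand). The Dsg1 copies resemble each other. Of all windows of 100 bases in their annotated transcripts, 24.6% in Dsg1a, 32.8% in Dsg1b and 13.9% in Dsg1c also occurred in another gene. In each case this was only in the other Dsg1 copies. Of windows of 50 bases the shares were 35.0%, 48.9% and 29.6%, some of them also in genes outside these copies. How reads were split among the Dsg1 copies is therefore uncertain. The other 8 genes shared no window of 100 bases and at most 0.733% of those of 50. Other annotated genes overlap some of the 10. Gm36938 lies on the same strand as Pkp1, at a mean of 1.22 CPM. Gm16090 lies opposite Dsg2 (5.69 CPM) and Gm10129 opposite Dsp (0.859 CPM), which matters where the counting ignored strand.

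Compared per length, the sorted cells held far more of some isoforms than of others. In castrated males the order by CPM per kb of exon was Dsc3 (475 ± 1.61), Pkp1 (331 ± 3.09), Jup (214 ± 11.1), Dsg1a (183 ± 10.9), Dsp (169 ± 11.8), Dsg3 (55.0 ± 2.18), Dsg1b (15.9 ± 1.82), Dsg2 (8.51 ± 0.899), Dsc2 (3.61 ± 0.567) and Dsc1 (0.699 ± 0.0643). Females held 409.8 ± 2.26 CPM per kb of Dsc3, 334 ± 6.73 of Pkp1, 214 ± 16.9 of Jup, 148 ± 1.62 of Dsp and 111 ± 17.3 of Dsg1a. Males held 498 ± 8.07 of Dsc3, 369 ± 39.4 of Pkp1, 227 ± 20.4 of Jup, 178 ± 8.41 of Dsg1a and 163 ± 0.235 of Dsp. The order was the same in castrated males and males, and in females Dsp stood above Dsg1a. Neighbours in the order did not overlap between libraries of a group, apart from Dsg1a and Dsp in castrated males. Dsc3 was thus the main desmocollin in every library, and Dsg1a, an isoform of the upper layers, the main desmoglein.

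**Figure D1:**
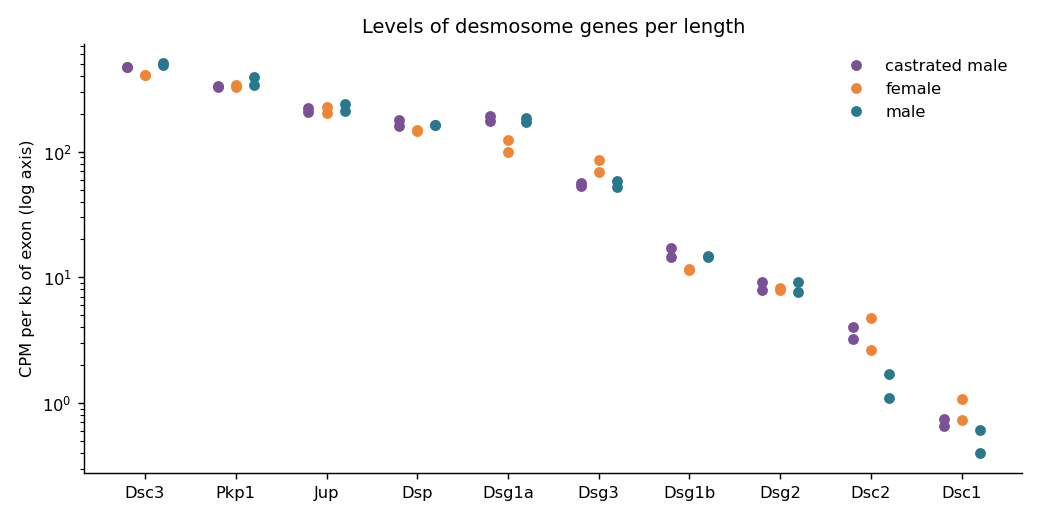
Level of each desmosome gene per length (y axis, CPM per kb of exon, log axis) in castrated males, females and males, with 1 point per library and 2 libraries per group. The genes run from Dsc3 at 409.8 to 498 CPM per kb (group means) down to Dsc1 at 0.504 to 0.898.

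Dsg1a was lower in females than in either group of males. It stood at 998 and 1085 CPM in castrated males, 699.8 and 561 in females, and 1048 and 981 in males. Both female libraries lay below all 4 male libraries, and castrated and intact males overlapped. Dsg1a fell in females against males (630.3 ± 98.2 against 1015 ± 47.8 CPM, log2 fold change -0.69 ± 0.14, limma adjusted p = 0.0301) and was higher in castrated males than in females (1042 ± 61.8 against 630.3 ± 98.2 CPM, log2 fold change 0.73 ± 0.14, adjusted p = 0.0475). Between castrated and intact males the log2 fold change was 0.04, with a 95% interval of -0.29 to 0.37. The comparisons share libraries, the same 2 female libraries entering both calls. Without female replicate 2 both calls were lost (log2 fold changes -0.53 and 0.57, adjusted p = 0.165 and 0.253). The call against males was also lost without either castrated male library, which enter through the shared spread, or either male library (adjusted p = 0.075 to 0.0971), and the call against females without either castrated male library (adjusted p = 0.301 and 0.323).

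Dsg1b, the second copy, had the same order of groups at lower levels. It stood at 57.8 and 68.0 CPM in castrated males, 45.2 and 45.8 in females, and 59.0 and 57.6 in males. Again both female libraries lay below the other 4. It did not pass in females against males (log2 fold change -0.35 ± 0.14, adjusted p = 0.153) or in castrated males against females (0.46 ± 0.14, adjusted p = 0.114). Dsg1c, a copy outside the 10 genes, stood at 15.4 ± 0.896 CPM in castrated males, 9.70 ± 2.48 in females and 16.6 ± 2.09 in males and was not called either (adjusted p = 0.147 in castrated males against females and 0.0819 in females against males). Because the copies share sequence, the values of one may hold reads of another.

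Dsc1, the desmocollin of the upper layers, was close to the limit of these libraries, with 17 to 42 reads in each. It stood at 3.30 and 3.76 CPM in castrated males, 3.68 and 5.38 in females, and 3.09 and 2.00 in males. Counting error alone gave exact 95% Poisson intervals of 3.88 to 7.28 CPM for the highest library, female replicate 2, and 1.16 to 3.20 for the lowest, male replicate 2. The female libraries lay above the male ones, the opposite order to Dsg1a, but the difference did not pass (log2 fold change 0.73 ± 0.32, adjusted p = 0.199). Pkp1 stood at 1653 and 1675 CPM in castrated males, 1704 and 1656 in females, and 1993 and 1713 in males. Its male libraries were the highest, replicate 1 most of all. It was not called in any comparison, with 95% intervals of the log2 fold change of -0.46 to 0.18 for females and -0.47 to 0.17 for castrated males, both against males. The 4 isoforms of the upper layers therefore had no common direction in females, with Dsg1a called lower and log2 fold changes of -0.35 for Dsg1b, 0.73 for Dsc1 and -0.14 for Pkp1.

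Among the basal and widespread isoforms, Dsc2 was higher in females than in males. It stood at 16.9 and 21.2 CPM in castrated males, 14.0 and 25 in females, and 5.75 and 8.93 in males, from 54 to 195 reads a library. All 4 libraries of castrated males and females lay above both male libraries, and castrated males and females overlapped. Dsc2 rose in females against males (19.5 ± 7.77 against 7.34 ± 2.25 CPM, log2 fold change 1.32 ± 0.31, limma adjusted p = 0.0433). In castrated males against males the log2 fold change was as large (19.1 ± 2.99 against 7.34 ± 2.25 CPM, 1.34 ± 0.31) but did not pass over all genes (unadjusted p = 0.00202, adjusted p = 0.425). In castrated males against females it was 0.02, with a 95% interval of -0.69 to 0.72. The female call was lost without female replicate 2 (log2 fold change 0.92, adjusted p = 0.319), without male replicate 1 (1.03, adjusted p = 0.112) and without either castrated male library (adjusted p = 0.0882 and 0.0889), and with voom precision weights (adjusted p = 0.0649). Dsc2 was also the least even of the 10 genes, its highest library holding 4.35 times the CPM of its lowest, while Dsc3, its neighbour on the chromosome, spanned 1.23 times.

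**Figure D2:**
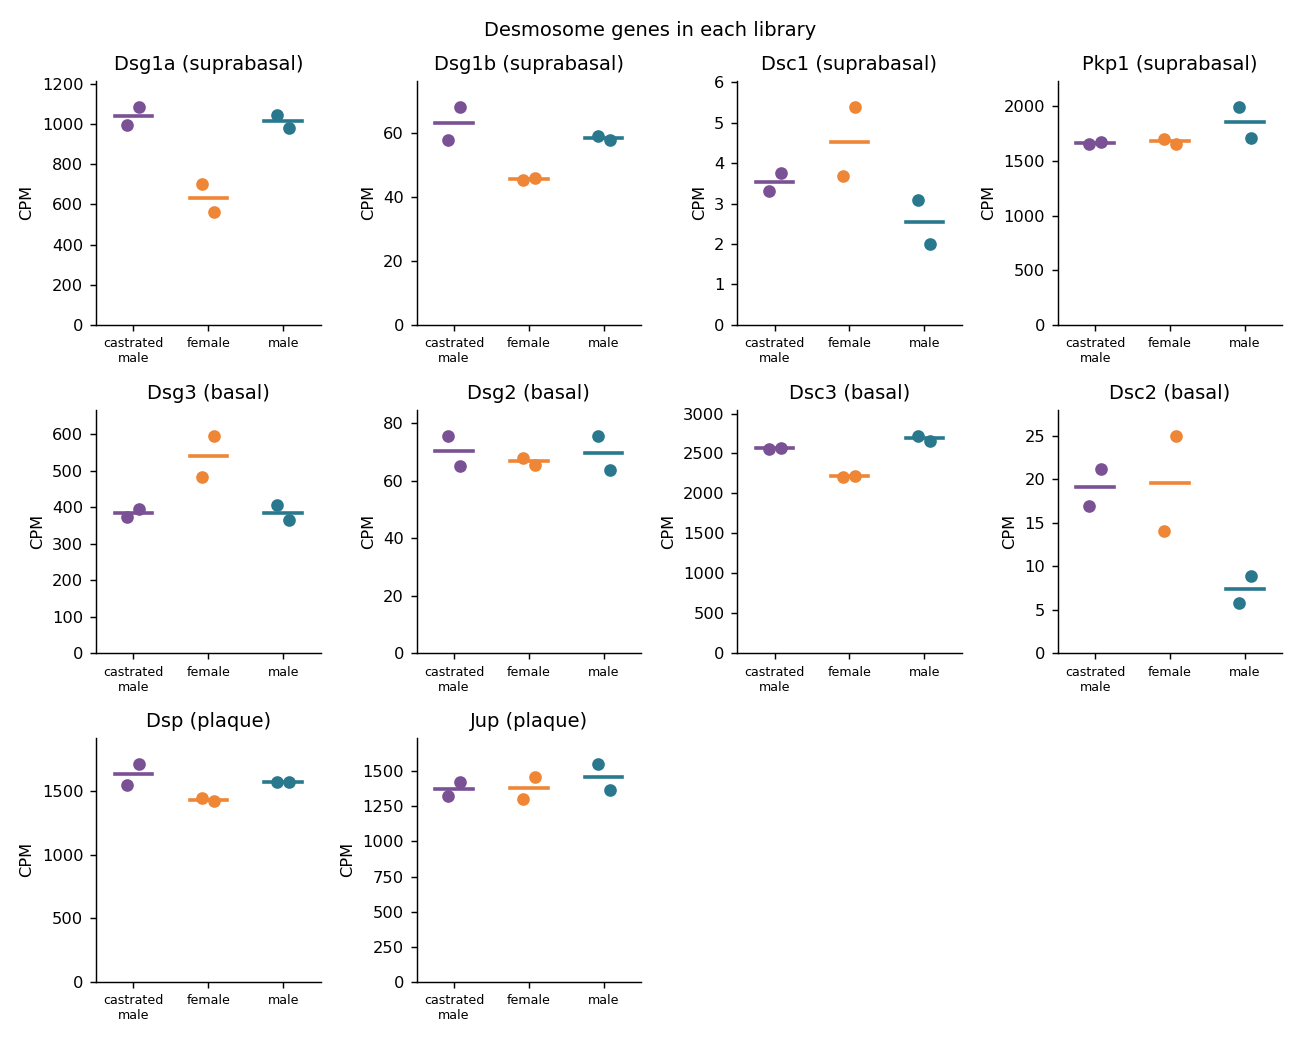
CPM of each desmosome gene (y axes, linear from 0) in castrated males, females and males, with 1 point per library and a bar at the mean of 2 libraries. Rows hold upper-layer isoforms, basal and widespread isoforms, and plaque proteins. Dsg1a has its lowest points in females (699.8 and 561 CPM), and Dsc2 in males (5.75 and 8.93 CPM).

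Dsg3, the basal desmoglein and the main target of autoantibodies in human pemphigus vulgaris, stood at 373 and 394 CPM in castrated males, 484 and 596 in females, and 406 and 364 in males. Both female libraries lay above the other 4. The difference narrowly missed the threshold in females against males (log2 fold change 0.48 ± 0.14, adjusted p = 0.0744) and missed it in castrated males against females (-0.49 ± 0.14, adjusted p = 0.106). Without female replicate 1 both passed (0.63 and -0.64, adjusted p = 0.0261 and 0.0326). Dsc3, the basal desmocollin, stood at 2560 and 2572 CPM in castrated males, 2205 and 2223 in females, and 2724 and 2662 in males. The female libraries were the lowest, the opposite of Dsg3, and no comparison passed (females against males -0.28 ± 0.14, adjusted p = 0.244). Dsg2, the desmoglein of simple epithelia and heart, stood at 63.7 to 75.6 CPM over all 6 libraries. The groups overlapped in every comparison, and its largest log2 fold change was 0.07.

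The plaque genes were high and even. Dsp, the link to keratin, stood at 1551 and 1712 CPM in castrated males, 1443 and 1421 in females, and 1571 and 1568 in males. The female libraries were lowest, but no comparison passed (females against males -0.13 ± 0.13, adjusted p = 0.575). Dsp has the longest exons of the 10 genes (9.66 kb), and library deviations followed exon length as given above, whose part in the result was not tested. Jup, which serves desmosomes and adherens junctions alike, stood at 1326 and 1427 CPM in castrated males, 1304 and 1458 in females, and 1552 and 1367 in males. The 3 groups overlapped, and its 95% interval in females against males was -0.40 to 0.24.

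The promoters of these 2 evenly expressed genes are shown as the 250 bases before the start of transcription, from RefSeq on GRCm38.p6. Capitals mark GC boxes (GGGCGG on either strand). The Dsp window lies at chr13:38151044-38151293 on the plus strand and the Jup window at chr11:100397791-100398040 on the minus strand.
Dsp: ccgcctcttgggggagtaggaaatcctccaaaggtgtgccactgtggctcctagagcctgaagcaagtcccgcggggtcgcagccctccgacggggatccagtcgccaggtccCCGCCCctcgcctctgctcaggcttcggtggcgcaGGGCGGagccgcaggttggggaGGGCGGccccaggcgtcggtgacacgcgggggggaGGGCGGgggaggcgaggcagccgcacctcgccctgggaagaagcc
Jup: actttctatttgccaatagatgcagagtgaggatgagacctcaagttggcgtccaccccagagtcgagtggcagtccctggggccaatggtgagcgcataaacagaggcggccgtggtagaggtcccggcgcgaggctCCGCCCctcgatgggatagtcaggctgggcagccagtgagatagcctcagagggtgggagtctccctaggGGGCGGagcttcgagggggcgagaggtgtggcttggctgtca
Dsp held 4 GC boxes and Jup held 2, and 32.7% of 32851 promoter windows of the same length held at least 1. G and C made up 72.4% and 62.0% of the bases, against a median of 52.4% over all windows, with 22 and 13 CpG against a median of 6. Neither held the letters TATAAA, which 12.4% of windows did, or the AP-1 letters TGANTCA, which 6.75% did, or the grainyhead letters AACCNGTT, which 1.79% did, on either strand. These are matches of letters only.

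Counted over the 10 genes, females against males gave 1 called higher (Dsc2) and 1 called lower (Dsg1a), where 3.71% and 2.4% of all genes were called in these directions and 6.11% in either. An unadjusted p below 0.05 was found for 5 of the 10 genes and for 24.9% of all genes. The median log2 fold change was -0.11 over the 10 genes and -0.01 over all genes tested. The groups did not overlap for 8 of 10 genes, 3 higher and 5 lower in females, and neither did they for 53.8% of all genes (26.6% higher and 27.2% lower). Castrated males against males gave 0 called by limma, as did the voom weights, where 0.0391% of all genes were called, 0.013% higher and 0.026% lower. One gene, Dsc2, had an unadjusted p below 0.05, which 5.91% of all genes had. Of the 10, 4 genes did not overlap between these groups, 2 in each direction, against 35.5% of all genes (17.2% higher and 18.2% lower), and the median was 0.03, against 0.00 over all genes. Castrated males against females gave 1 called higher (Dsg1a) and 0 lower, where 1.71% of all genes were called in either direction, 0.566% higher and 1.14% lower. Here 3 of the 10 had an unadjusted p below 0.05, against 21.6% of all genes. The groups did not overlap for 5 of 10, 4 higher and 1 lower in castrated males, against 57.7% of all genes (29.3% higher and 28.4% lower), and the median was 0.04, against 0.01. No test of these shares was made, since 10 genes were chosen with earlier results known.

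**Figure D3:**
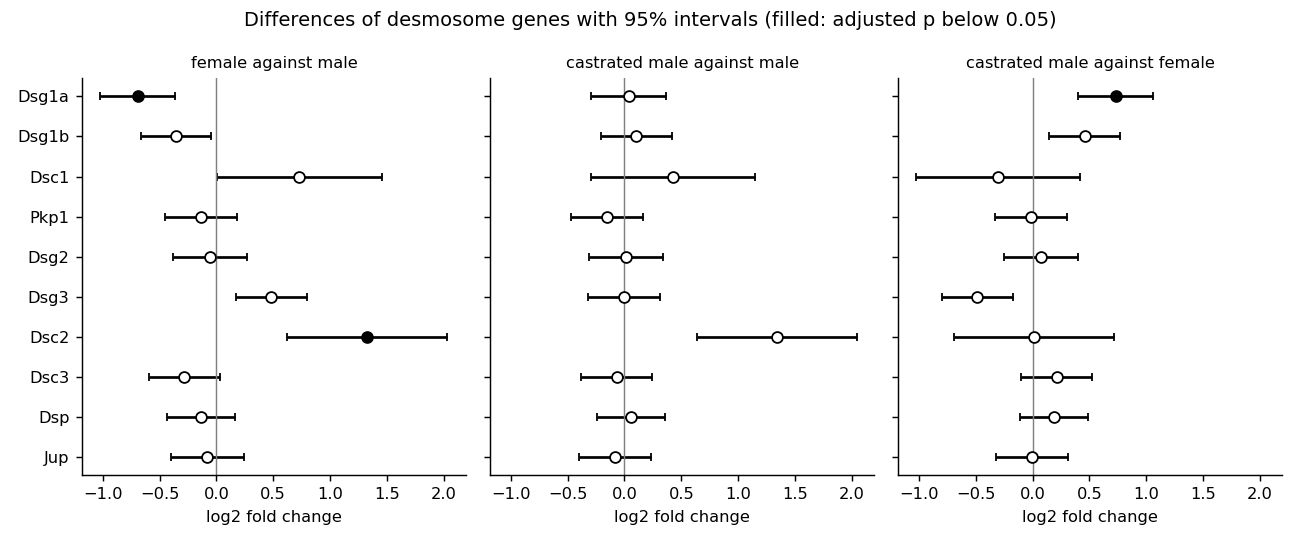
Log2 fold change (x axes) of each desmosome gene in the 3 comparisons, with 95% intervals from limma and filled points for an adjusted p below 0.05. Dsg1a is filled in females against males (-0.69) and castrated males against females (0.73), and Dsc2 in females against males (1.32).

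Ratios of 2 isoforms within a library would not depend on how that library was scaled, but for 0.5 CPM added to each gene. This addition weighs most on Dsc1, the lowest of the 10 genes, and pulls its ratios up. Per length, a library held 3.28 and 3.37 times as much Dsg1a as Dsg3 in castrated males, 1.78 and 1.15 times in females, and 3.17 and 3.31 times in males. The female libraries lay below the other 4, and the mean log2 ratio was 1.73 ± 0.03 in castrated males, 0.52 ± 0.44 in females and 1.69 ± 0.04 in males (SD). For Dsg1b over Dsg3 the means were -1.79 ± 0.11, -2.73 ± 0.20 and -1.89 ± 0.09 in the same order. Dsc1 over Dsc3 went the other way in females, at -9.22 ± 0.11 in castrated males, -8.70 ± 0.34 in females and -9.71 ± 0.35 in males. Dsc1 over Dsc2 was -2.21 ± 0.11 in castrated males, -1.89 ± 0.23 in females and -1.29 ± 0.79 in males, where the female and male libraries overlapped. Dsc2 over Dsc3, a ratio added after its values were seen, stood at -7.01 ± 0.22 in castrated males, -6.81 ± 0.57 in females and -8.42 ± 0.44 in males. Pkp1 over Jup was 0.63 ± 0.06, 0.64 ± 0.14 and 0.70 ± 0.02. Dsg1a over Dsg1b, also not a planned ratio, was 3.52 ± 0.08 in castrated males, 3.25 ± 0.24 in females and 3.59 ± 0.04 in males. Here too the female libraries lay below the other 4. In a two-sided exact permutation test 2 libraries against 2 cannot give a p below 0.33, so none of the 24 tests over 8 ratios could pass (lowest adjusted p = 0.5). The ratio of upper-layer to basal isoforms was thus lower in females by the desmogleins, whether Dsg1a and Dsg1b were taken singly or summed (mean log2 ratio of the sum to Dsg3 0.66 ± 0.42 in females and 1.81 ± 0.05 in males). For the desmocollins, Dsc1 over Dsc3 was higher in females than in either group of males. Dsc1 over Dsc2 was higher in females than in castrated males, without overlap, and its lower mean in females than in males rested on male replicate 1 (log2 ratio -0.74, against -1.85 in male replicate 2). No test of these differences passed.

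**Figure D4:**
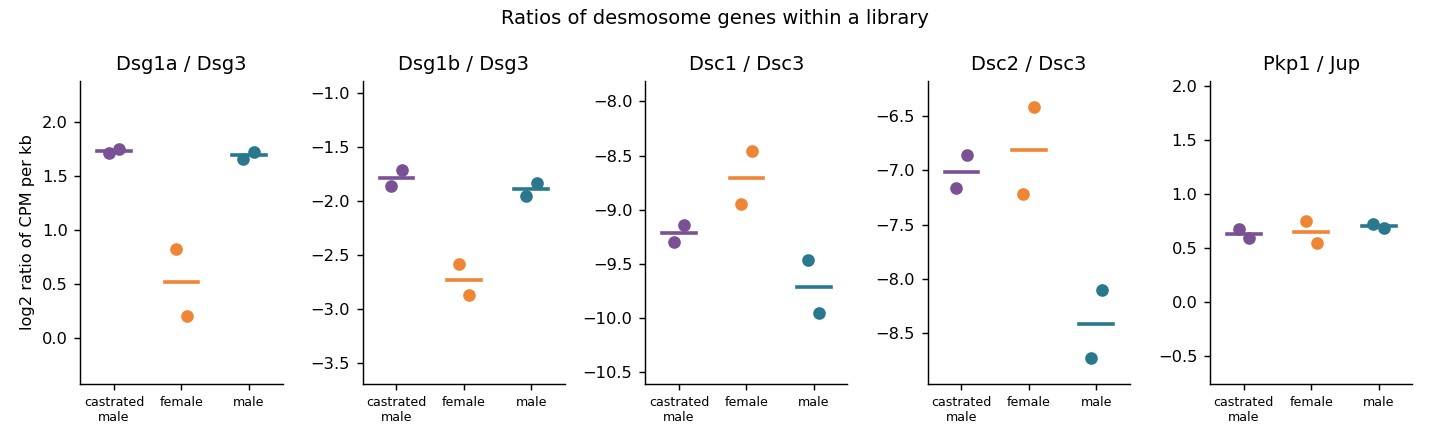
Log2 ratio of desmosome genes within a library (y axes, CPM + 0.5 per kb of exon for each gene). There is 1 point per library and a bar at the mean of 2, all panels spanning the same range. Dsg1a over Dsg3 has means of 1.73 in castrated males, 0.52 in females and 1.69 in males, while the group means of Pkp1 over Jup lie between 0.63 and 0.70 and its libraries between 0.54 and 0.74.

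Among markers of the epidermal layers, 3 of 8 spinous, 6 of 10 granular and cornified, 5 of 8 activated and 0 of 9 basal ones were called in females against males by limma. The share over all genes was 6.11%. The spinous markers summed to 1870 and 2031 CPM in castrated males, 2156 and 2937 in females, and 1714 and 1317 in males. Krt1, Krtdap and Ptgs1 rose in females against males, Krt1, a keratin of the spinous layer, to 124 ± 26.2 CPM against 34.9 ± 8.58 (adjusted p = 0.00873). Krt10, its partner keratin, stood at 219 ± 18.1 CPM in castrated males, 222 ± 4.08 in females and 171 ± 24.7 in males and was not called. Without female replicate 2, 0 spinous markers were called in females against males.

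The 10 measured granular and cornified markers summed to 440 and 516 CPM in castrated males, 489 and 654 in females, and 317 and 380 in males, and they differed in direction. Flg, the filaggrin gene, Abca12, a lipid transporter of the barrier, Cnfn and Rptn rose in females against males, while Lce1m and Flg2 fell. Flg reached 59.1 ± 21.7 CPM in females and 14.0 ± 11.3 CPM in males (adjusted p = 0.0492), and Flg2, a filaggrin relative, at 3.13 ± 1.35 in females, against 8.49 ± 1.54 in males (adjusted p = 0.0355). Lce1m and Flg2 were higher, and Rptn lower, in castrated males than in females, where 0.566% and 1.14% of all genes were called in these directions. The 6 calls in females against males became 2 without either castrated male library, 0 without female replicate 2, and 3 with voom weights. The 3 in castrated males against females became 1 without any of those 3 libraries.

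The 8 markers of activated keratinocytes summed to 844 and 954 CPM in castrated males, 1604 and 3554 in females, and 874 and 1015 in males. Krt6a, Krt6b, Sprr1a, S100a8 and S100a9 rose in females against males, and all but Sprr1a were lower in castrated males than in females. In the second comparison 1.14% of all genes were called lower. S100a8, which with S100a9 encodes calprotectin, stood at 1.08 ± 0.0813 CPM in castrated males, 398 ± 316 in females and 0.443 ± 0.127 in males (adjusted p = 0.000192 in castrated males against females and 0.000118 in females against males). The 5 calls in females against males became 2 without either castrated male library, 8 without female replicate 1, 3 without female replicate 2 or male replicate 2, and 2 with voom weights. The 4 in castrated males against females became 2 without either castrated male library, 7 without female replicate 1, and 1 with voom weights.

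The 9 basal markers summed to 45624 and 45407 CPM in castrated males, 41412 and 43587 in females, and 42636 and 48894 in males, and limma and the voom weights called 0 in each comparison. Unadjusted p-values were below 0.05 for the 4 named above in females against males, all lower in females, and for 0 in castrated males against males. In castrated males against females 5 had such a p, the same 4 being higher and Trp63 lower in castrated males. Shares over all genes were 24.9%, 5.91% and 21.6% in the same order. Without female replicate 1, 3 basal markers were called lower in females than in males and 2 higher in castrated males than in females. In castrated males against males 0 genes were called by limma, or with voom weights, in any list of markers or partner genes. An unadjusted p below 0.05 was found there for 6 of 10 granular and 4 of 8 spinous markers, and for 0 of the activated ones. The share over all genes was 5.91%. All of these granular and spinous markers were higher in castrated males. The median log2 fold change was 1.04 over the granular, 0.41 over the spinous and 0.01 over the activated markers, against 0.00 over all genes. The part of these layers in the results for the desmosome genes was not tested. In bulk RNA, fewer cells of a layer and less RNA per cell cannot be told apart.

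Markers of other cell types were measured as well. The 9 leukocyte markers summed to 324 and 380 CPM in castrated males, 819 and 1786 in females, and 301 and 341 in males, of which Cd74, an antigen presentation gene, made up 238 ± 26.1, 979 ± 532 and 222 ± 19.2 in the same order. Cd74, H2-Aa and Cxcr2 were called higher in females than in males, where 3.71% of all genes were. Cd74 and H2-Aa were called lower in castrated males than in females, where 1.14% of all genes were. The last 2 calls became 0 without either castrated male library and 1 without female replicate 2. Cd207, which defines Langerhans cells, stood at 5.01 to 8.46 CPM over all libraries, and Ptprc, the gene of CD45, at 2.24 to 4.66. The 11 follicle and sebaceous markers summed to 667 and 702 CPM in castrated males, 936 and 784 in females, and 1064 and 769 in males. Krt79 was lower in castrated males than in males (78.8 ± 16.1 against 163 ± 14.0 CPM) but did not pass (log2 fold change -1.06 ± 0.16, limma adjusted p = 0.0934). Mgst1 and Krt79 were called lower in castrated males than in females (limma adjusted p = 0.0484 each), where 1.14% of all genes were. Both calls were lost without either castrated male library, without female replicate 2 and with voom weights, and 1 was called without female replicate 1. Dsg4, the desmoglein of the hair shaft, was at 0 in 4 of the 6 libraries and at most 0.204 CPM. Pkp2, the plakophilin of heart and simple epithelia, was at 0 in female replicate 2 and male replicate 2 and at most 0.204 CPM. The 8 melanocyte and Merkel cell markers summed to 27.2 to 72.3 CPM and the 8 stromal and muscle markers to 14.9 to 34.6 over all libraries, with Krt20, of Merkel cells, at 0 in 5 of 6. Limma and the voom weights called 0 genes of either list. In castrated males against males, 1 stromal marker had an unadjusted p below 0.05 by limma, which 5.91% of all genes had. The part of these cells in the results was not tested.

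Of 10 other desmosome and cornified junction genes, 8 could be tested, and Pkp4, an armadillo protein of cell junctions, rose in females against males (49.1 ± 5.09 against 22.1 ± 0.915 CPM, log2 fold change 1.13 ± 0.16, adjusted p = 0.00961), as the only call of the list, where 3.71% of all genes were called higher. It was 28.5 ± 3.0 CPM in castrated males, which did not pass against females (adjusted p = 0.0527). The median log2 fold change of the list was -0.07 in females against males, 0.14 in castrated males against males and 0.14 in castrated males against females. Perp, a membrane protein of desmosomes and a p63 target, stood at 3304 ± 306 CPM in castrated males, 2584 ± 175 in females and 2942 ± 7.69 in males. Pkp3, the plakophilin of all epidermal layers, stood at 1203 ± 0.815, 1167 ± 37.8 and 1238 ± 41.6 in the same order, and neither was called. In females against males the list held 0 calls without female replicate 2, 3 without female replicate 1 and 2 without male replicate 1. It held 2 in castrated males against females without female replicate 1 and 1 without either male library.

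Adherens junctions share Jup with desmosomes, and 12 of 13 of their listed genes were tested. With all 6 libraries limma called 0 of them in every comparison, as did the voom weights, but not in every fit with 1 left out. Unadjusted p-values were below 0.05 for 3 in females against males, 1 in castrated males against males and 1 in castrated males against females. Shares over all genes were 24.9%, 5.91% and 21.6% in the same order. Cdh1, the E-cadherin of all layers, stood at 963 ± 0.346 CPM in castrated males, 829.8 ± 16.1 in females and 1062 ± 40.4 in males (adjusted p = 0.332 in castrated males against females and 0.113 in females against males). Cdh3, the P-cadherin of basal cells, stood at 171 ± 5.19, 236 ± 46.6 and 188 ± 7.89 in the same order (adjusted p = 0.132 and 0.228).

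Of the 11 keratins listed as partners of desmoplakin, Krt1, Krt6a and Krt6b rose in females against males. Krt6a and Krt6b were lower in castrated males than in females. The shares of all genes called in these directions were 3.71% and 1.14%. Krt6a, a keratin of activated keratinocytes, stood at 63.0 ± 7.45 CPM in castrated males, 355 ± 249.2 in females and 68.1 ± 6.74 in males. The 3 calls in females against males became 1 without either castrated male library or female replicate 2, and 6 without female replicate 1. The 2 in castrated males against females became 0 without either castrated male library or with voom weights, 1 without female replicate 2, and 4 without female replicate 1 or either male library.

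Of 22 regulators of desmosome genes or proteins, 21 were tested, and 5 rose and 1 fell in females against males. There, 3.71% of all genes were called higher and 2.4% lower. Ovol1, a repressor that restrains growth of epidermal progenitors, rose to 102 ± 17.9 CPM in females, against 46.3 ± 2.58 in males (adjusted p = 0.00889). Zfp750, a zinc finger protein that drives epidermal differentiation, rose to 77.5 ± 24.3 CPM in females, against 32.9 ± 1.44 in males (adjusted p = 0.0211). Atp2a2, the calcium pump mutated in human Darier disease, rose to 73.4 ± 10.7 CPM in females, against 44.4 ± 1.59 in males (adjusted p = 0.0324). Klk6 and Klk7 also rose, the second a peptidase that cleaves proteins of cornified junctions (44.1 ± 16.8 CPM in females against 14.7 ± 8.86 in males, adjusted p = 0.0470). Klf4, a transcription factor of barrier formation, fell to 98.5 ± 23.5 CPM in females, against 173 ± 13.8 in males (log2 fold change -0.83 ± 0.16, adjusted p = 0.0275), and stood higher in castrated males, at 175 ± 0.919, than in females (adjusted p = 0.0461). Ovol1 was lower in castrated males (58.2 ± 3.42 CPM) than in females (adjusted p = 0.0451). Grhl1, a grainyhead-like factor whose loss lowers Dsg1 in mouse skin, stood at 37.7 ± 2.23 CPM in castrated males, 34.3 ± 2.97 in females and 30.7 ± 6.09 in males and was not called. The 6 calls in females against males became 2 without either castrated male library, 0 without female replicate 2 and 3 without male replicate 2. The 2 in castrated males against females became 0 without either castrated male library, without female replicate 2 or with voom weights, 5 without female replicate 1, and 3 without male replicate 1 or 2. With all libraries, limma gave an unadjusted p below 0.05 for 9 regulators in females against males. It did so for 4 in castrated males against males and 7 in castrated males against females. Such a p was found for 24.9%, 5.91% and 21.6% of all genes in the same order.

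Over the 6 libraries, the genes outside the 10 that correlated best with Dsg1a were Oplah (Pearson r = 0.995), Gm43857 (0.994) and Cyp2j6 (0.994). Those that correlated best with Dsc2 were Bag1 (0.985), Cdc14b (0.981) and Asf1b (0.980). These are the highest of 11529 genes whose mean reached 5 CPM, on log2(CPM + 0.5). They share libraries and scaling, so the values are a description, and of pattern rather than of the size of a change. Among the 10 genes themselves, Dsg1a had r = 0.92 with Dsg1b, 0.92 with Dsc3 and 0.89 with Dsp, but -0.94 with Dsg3. Oplah stood at 308 and 315 CPM in castrated males, 275 and 250.3 in females, and 315 and 311 in males.

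**Figure D5:**
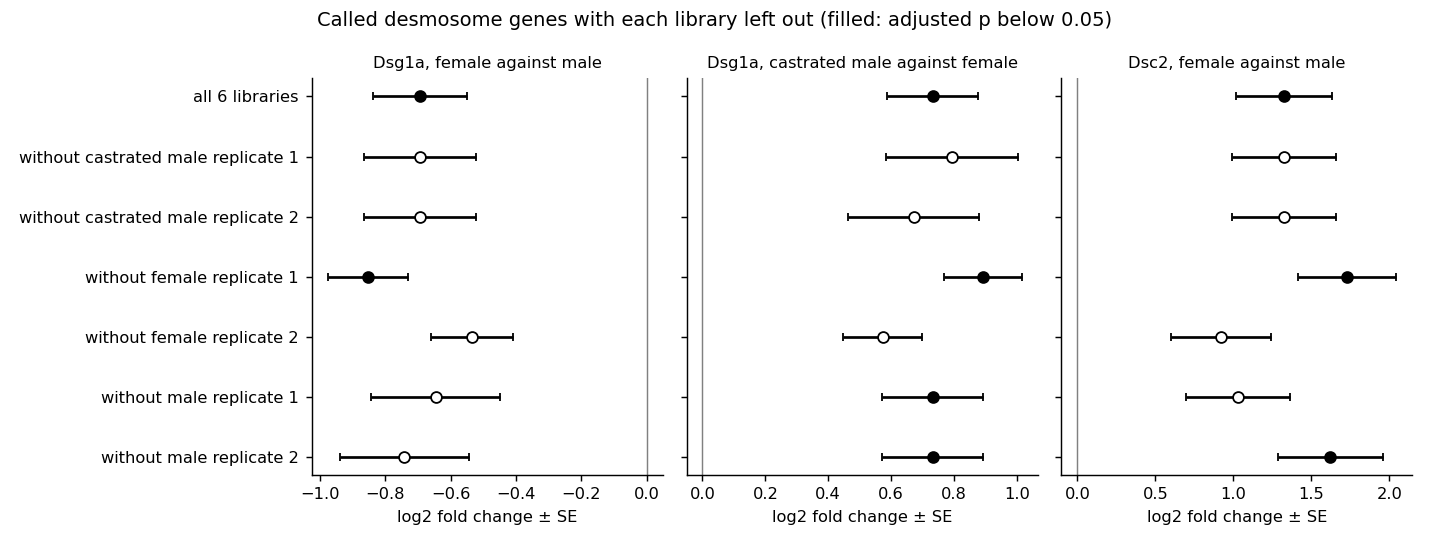
Log2 fold change ± SE (x axes) of the 3 called differences with all 6 libraries and with each library left out, filled where the adjusted p was below 0.05. The direction stays the same in every row, with values of -0.53, 0.57 and 0.92 without female replicate 2. All 3 points are open there, and likewise without either castrated male library.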

How the data were processed

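Poly(A) RNA of sorted keratinocytes was sequenced in 6 libraries. Per the submitters' processing notes, FastQC, STAR 2.7.5a, Picard and HTSeq 0.11.1 were used with GRCm38 and mm10. Annotation, strand setting and scaling: none was given in the sources used here. As deposited, each value is a score: judged from the values, the authors scaled reads per gene to nearly the same total in each library (19999024 to 19999732) and rounded them, a step that no label records. Dividing by the step found in each column gave whole reads, with at least 99.97% of values within 0.5 of a multiple. Libraries were scaled by TMM factors (0.927 to 1.03), a trimmed mean of log ratios. Genes with 1.16 CPM (10 reads at the median depth) in 2 libraries and 15 reads in total were tested with limma 3.58.1 (R 4.3.3) on log2(CPM + 0.5), all 6 libraries in 1 fit, 1 mean per group, an intensity trend, 3 residual degrees of freedom and Benjamini-Hochberg adjustment. All p-values are two-sided. The procedure was tested on simulated data. In the test of the limma fit each gene had 1 noise level for all 6 libraries, so unequal spread between groups was not covered. Exon lengths and positions are from GENCODE on GRCm38. One read was worth 0.102 to 0.128 CPM, and intervals on reads cover counting error only. The 10 genes and all lists were chosen with earlier results of these data known. The text names all 10 and called genes of the junction, keratin, regulator and layer lists (at most 6 a list). It also names 9 fixed junction and keratin genes and the 3 genes that correlated best with each called member. Called markers of other cell types were named after their values were seen. Because the columns are not counts, planned count models were not run.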

Additional observations from a re-analysis of the deposited data

How the results depend on the processing

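Directions of the 3 called differences (Dsg1a in females against males and in castrated males against females, Dsc2 in females against males) stayed the same under all 15 alternatives, but the calls did not. Of the 10 genes, 2 were called in females against males, and 0 were called with no filter on low values or with only the 2 groups compared. With voom precision weights, added after seeing the data, 1 was called. In castrated males against females 1 was called, and 0 with median-of-ratios size factors, a pseudocount of 0.1 CPM, no filter, voom weights or the replicate block. Leaving out 1 library at a time gave 0 to 3 called in females against males and 0 to 2 in castrated males against females. With the replicate block the count in females against males stayed at 2 (817 genes called in all, against 939). The labels tie no replicate number to a shared litter, and deviations of same-numbered libraries correlated at 0.19 between castrated males and females, -0.01 between castrated males and males and -0.15 between females and males, so the numbers were not taken as pairs. In castrated males against males 0 were called under every alternative that was run. The difference in log2 Pkp1 over Jup changed sign with libraries left out, from -0.16 to 0.043 in females against males and from -0.11 to 0.090 in castrated males against females. The cause was not tested. The planned count models on recovered reads were not run. Depth limits Dsc1 (17 to 42 reads) and, less, Dsc2 (54 to 195). With 2 pools per group, the limma p-values rest on the spread between pools shared by all 3 groups (3 residual degrees of freedom). That spread was moderated toward a trend over all genes (5.79 prior degrees of freedom). No spread beyond that of these pools enters them. The scatter of reads between the 2 libraries of a group was unequal. As chi-square per degree of freedom it was 4.41 in castrated males, 12.3 in females and 11.7 in males. Its part in the calls was not tested.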
